A study of Mus musculus with 6 samples.

Results

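The RAS GTPase-activating protein (RAS GAP) family other than *Rasa1* is described here by its transcription in proliferating muscle stem cells (MuSCs) with and without *Kmt5b*. The members were taken by gene symbol and by no measured value: *Rasa2*, *Rasa3*, *Rasa4*, *Nf1*, *Rasal2*, *Dab2ip*, *Iqgap1*, *Spred1* and *Spred2*, which are 9 of the 14546 genes listed. All 9 passed the filter on low values, as did 12451 genes in all. RAS proteins are switches at the inner face of the plasma membrane that are on when they hold GTP and off when they hold GDP. Exchange factors load GTP, and RAS GAPs speed its hydrolysis and so turn RAS and the ERK kinase cascade below it off. In MuSCs, which rest in adult muscle and divide after injury, growth factor signalling through RAS and ERK is known for its part in proliferation.

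The members do not all have this activity. *Rasa2*, *Rasa3* and *Rasa4* encode the GAP1 subfamily, *Nf1* encodes neurofibromin, and *Rasal2* and *Dab2ip* encode GAPs of a further subfamily. *Iqgap1* encodes a scaffold protein whose GAP-related domain is known to lack GAP activity on RAS. *Spred1* and *Spred2* encode Sprouty-related proteins that bring neurofibromin to the membrane and have no GAP domain of their own.

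PRO-seq labels the nascent RNA of engaged RNA polymerases in isolated nuclei, and reads were counted on the sense strand over the first 400 nt of a transcript, called the TSS region, and over the rest of it, the gene body. The 3 Ctrl libraries came from Pax7CreERT/Suv4-20h1WT cells (the *Kmt5b*+/+ genotype, with Suv4-20h1 an older name of *Kmt5b*) and the 3 *Kmt5b* sKO libraries from Pax7CreERT/Suv4-20h1KO cells (*Kmt5b* flox/flox). Both genotypes carry the tamoxifen-inducible Cre that is driven from *Pax7*, so *Kmt5b*, a histone H4K20 methyltransferase, is lost in cells of the *Pax7* lineage only. The methods describe tamoxifen given to adult C57BL/6 mice, magnetic enrichment of the MuSCs and culture with bFGF and LIF. The age at tamoxifen is not tied to single libraries, and the labels do not name the animal behind a library, so p-values measure the spread between these libraries.

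Depth and composition differed between the libraries. The listed genes held 926904 to 3246088 reads in TSS regions and, in gene bodies, 7425433 to 16249797. *Kmt5b* itself held 93.7, 87.3 and 102 RPM in the TSS region of the Ctrl libraries and 120, 107 and 113 RPM in those labelled *Kmt5b* sKO (adjusted p = 0.721, limma). These groups did not overlap, as in 15.6% of tested genes. Its gene body held 30.6, 35.4 and 38.5 TPM under Ctrl, against 37.8, 35 and 42.6 TPM under *Kmt5b* sKO (adjusted p = 0.706, limma). Neither region was limited to a deleted exon, so its nascent transcription does not check the labels. Muscle stem cell markers (7 of 7 listed) summed over gene bodies to 1532 to 2279 TPM under Ctrl, against 2023 to 2729 TPM under *Kmt5b* sKO. The sum of 6 differentiating muscle markers ranged from 1344 to 2831 TPM in Ctrl and from 2994 to 3949 TPM in *Kmt5b* sKO, and the lowest sums of both lists were those of Ctrl replicate 3. The part of these shifts in the members' values was not tested. Fibroblast, endothelial and Schwann markers summed to at most 17.5, 5.05 and 23 TPM, with *Pdgfra*, *Cdh5* and *Tek* under 1 TPM. Schwann markers were at 8.75 to 9.9 TPM in Ctrl and 14.8 to 23 TPM in *Kmt5b* sKO, and of 4 immune markers only *Cd68*, a gene of macrophage lysosomes, was listed, at 214 to 402 TPM in Ctrl and 319 to 326 TPM in *Kmt5b* sKO. In such bulk samples fewer cells of a type and less RNA per cell cannot be told apart.

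The 9 genes differ widely in length. The listed transcripts run from 27544 nt of gene body in *Rasa4* to 277013 nt in *Rasal2*, and *Nf1* comes next with 238750 nt. Their median of 99251 nt lies above the 20786 nt of the median tested gene, and 8 of the 9 are longer than at least 80% of the tested genes. Exons fill 2.65% (*Dab2ip*) to 9.63% (*Rasa4*) of the gene bodies, so the counted gene bodies are mostly intron. On GRCm38 they lie on 7 chromosomes: *Rasa2* (chr9:96539300-96631617, minus strand), *Rasa3* (chr8:13566948-13677603, minus), *Rasa4* (chr5:136083916-136111860, plus), *Nf1* (chr11:79339792-79578942, plus), *Rasal2* (chr1:157135182-157412595, minus), *Dab2ip* (chr2:35582840-35730992, plus), *Iqgap1* (chr7:80711583-80803416, minus), *Spred1* (chr2:117121374-117182279, plus) and *Spred2* (chr11:19924375-20024026, plus). In *Dab2ip* 6 and in *Rasal2* 4 annotated coding start positions lie inside the counted gene body, so reads there can belong to several isoforms. *Dab2ip* and *Iqgap1* also have 2 coding start positions each upstream of the listed start. Their counted TSS regions can thus lie inside longer isoforms. The part of this in their TSS values and pausing indices was not tested.

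**Figure D1:**
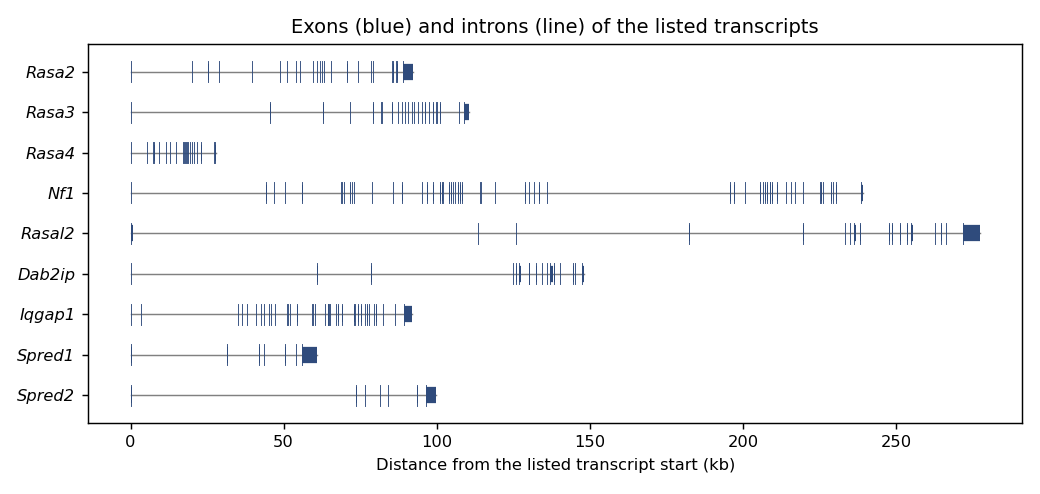
Listed transcripts of the 9 genes, aligned at their starts, with distance in kb on the x axis, exons in blue (narrow exons are drawn at a minimum line width) and introns as a line. *Rasal2* (277013 nt of gene body) and *Nf1* (238750 nt) are the longest and *Rasa4* (27544 nt) the shortest.

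Sequences are printed for 4 members because they span the family's range at the start site: *Rasa2*, *Rasa3* and *Rasa4* belong to 1 subfamily and held high, middle and low TSS levels, and *Spred1* had the lowest ratio of TSS to gene body signal. Each is 200 nt on GRCm38, read 5′ to 3′ on the gene's strand, and lies directly upstream of the listed start for *Rasa2*, *Rasa3* and *Rasa4* and of the RefSeq start, 303 nt before the listed one, for *Spred1*: chr9:96631618-96631817 (minus) for *Rasa2*, chr8:13677604-13677803 (minus) for *Rasa3*, chr5:136083716-136083915 (plus) for *Rasa4* and chr2:117120871-117121070 (plus) for *Spred1*. None of the 4 windows overlaps an annotated exon. Capitals mark GGGCGG, the core bound by SP/KLF factors, and CCAAT, the core bound by NF-Y, each on either strand (CCGCCC and ATTGG are the same motifs reversed).
Rasa2: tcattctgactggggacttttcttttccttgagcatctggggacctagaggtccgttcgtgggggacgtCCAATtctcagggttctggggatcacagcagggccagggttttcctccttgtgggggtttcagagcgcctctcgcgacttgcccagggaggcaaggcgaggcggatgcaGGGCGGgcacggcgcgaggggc
Rasa3: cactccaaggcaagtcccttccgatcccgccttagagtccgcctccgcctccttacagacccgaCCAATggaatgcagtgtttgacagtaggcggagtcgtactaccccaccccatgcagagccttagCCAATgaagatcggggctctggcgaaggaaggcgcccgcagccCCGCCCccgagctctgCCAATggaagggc
Rasa4: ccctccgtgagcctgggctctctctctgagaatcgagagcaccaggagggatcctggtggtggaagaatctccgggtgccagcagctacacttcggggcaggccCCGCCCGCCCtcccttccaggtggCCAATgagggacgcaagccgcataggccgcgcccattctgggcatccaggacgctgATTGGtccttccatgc
Spred1: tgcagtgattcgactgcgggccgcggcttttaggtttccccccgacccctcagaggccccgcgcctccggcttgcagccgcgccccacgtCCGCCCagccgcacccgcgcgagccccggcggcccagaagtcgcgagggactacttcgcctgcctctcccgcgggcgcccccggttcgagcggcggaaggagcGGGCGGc
The *Rasa3* window holds 3 CCAAT motifs and 1 GGGCGG, and that of *Rasa2* holds 1 of each. In *Rasa4* there are 2 of each, and its 2 CCGCCC share letters. *Spred1* holds 2 GGGCGG and no CCAAT in a window of 76% GC. Over all 9 members GGGCGG was present in 6 windows and CCAAT in 5, against 31% and 29.3% of the 32851 RefSeq promoters of the same length (GRCm38). TATAAA was in none of the 9 windows and in 9.96% of all. The 9 windows held 52% (*Spred2*) to 77% (*Dab2ip*) GC, against a median of 53% over the RefSeq promoters. All 200 nt of the *Rasal2* window and 99 nt of the *Nf1* window were annotated exon, counting exons of any gene on either strand. The *Rasal2* window lies within 2810025M15Rik (chr1:157412352-157420236), a transcribed processed pseudogene on the opposite strand. Member windows end at the outermost nearby start, and those of the RefSeq promoters at each RefSeq start. The members all passed the filter on low values, while the RefSeq promoters were not limited to genes that did. The part of these differences in the shares was not tested. Such matches describe letters and not binding.

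Inside the 400 nt TSS region the 9 genes were rich in CpG as many promoters of mammalian genes are, with a median GC content of 71.5% against 65.5% over all tested genes. *Spred1* held 58 CpG (more than 92.8% of tested genes), *Rasa2* and *Rasal2* 54 each, and *Rasa4* 26 and *Dab2ip* 29, below the median of 33. The listed start of 8 members lay at most 114 nt from a RefSeq start that fell inside the counted region. For *Spred1* the nearest RefSeq start lay 303 nt upstream of the listed one, so its TSS region begins downstream of that start.

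Polymerase signal at the start separated the family into 3 tiers. *Rasa2* held 115, 90.8 and 86.2 RPM under Ctrl, against 96, 128 and 75 RPM under *Kmt5b* sKO (replicates 1 to 3 in each, an order kept below), which put its mean of 98.5 RPM above 91.5% of tested genes. Its lowest library stood above every library of every other member. *Rasal2*, *Spred2*, *Iqgap1*, *Rasa3* and *Dab2ip* followed with means of 49.7, 47, 44.4, 42.7 and 32.4 RPM, and neighbours in that order overlapped. *Nf1*, *Rasa4* and *Spred1* formed the lowest tier with means of 8.89, 7.67 and 6.31 RPM (25.1%, 22.6% and 19.5% of tested genes lower), and every library of *Dab2ip* stood above every library of these 3. The low tier rested on few reads, 5 to 39 TSS reads per library for *Spred1* and 10 to 30 for *Rasa4*, against 158 to 474 for *Rasa2*. The counted region of *Spred1* also begins 303 nt past its nearest RefSeq start.

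Gene bodies were ordered differently and without gaps. *Iqgap1* was highest with a mean of 47.2 TPM (87.3% of tested genes lower), then came *Spred1* with 39.6, *Rasa3* with 34.6, *Spred2* with 32.7, *Rasa4* with 27.1, *Dab2ip* with 25.3, *Nf1* with 20.3, *Rasal2* with 19.3 and *Rasa2* with 13.9 TPM (45% lower), a scale that divides by length. Neighbours overlapped throughout over the 6 libraries. *Iqgap1* nevertheless exceeded *Spred1*, *Spred2* exceeded *Rasa4*, and *Rasal2* exceeded *Rasa2* in 6 of 6 libraries. The member with the most signal at its start, *Rasa2*, was thus the one with the least in its body. *Spred1*, last in the counted TSS region, was next to the top in the body. Gene bodies of the members rested on 584 to 8108 reads per library.

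**Figure D2:**
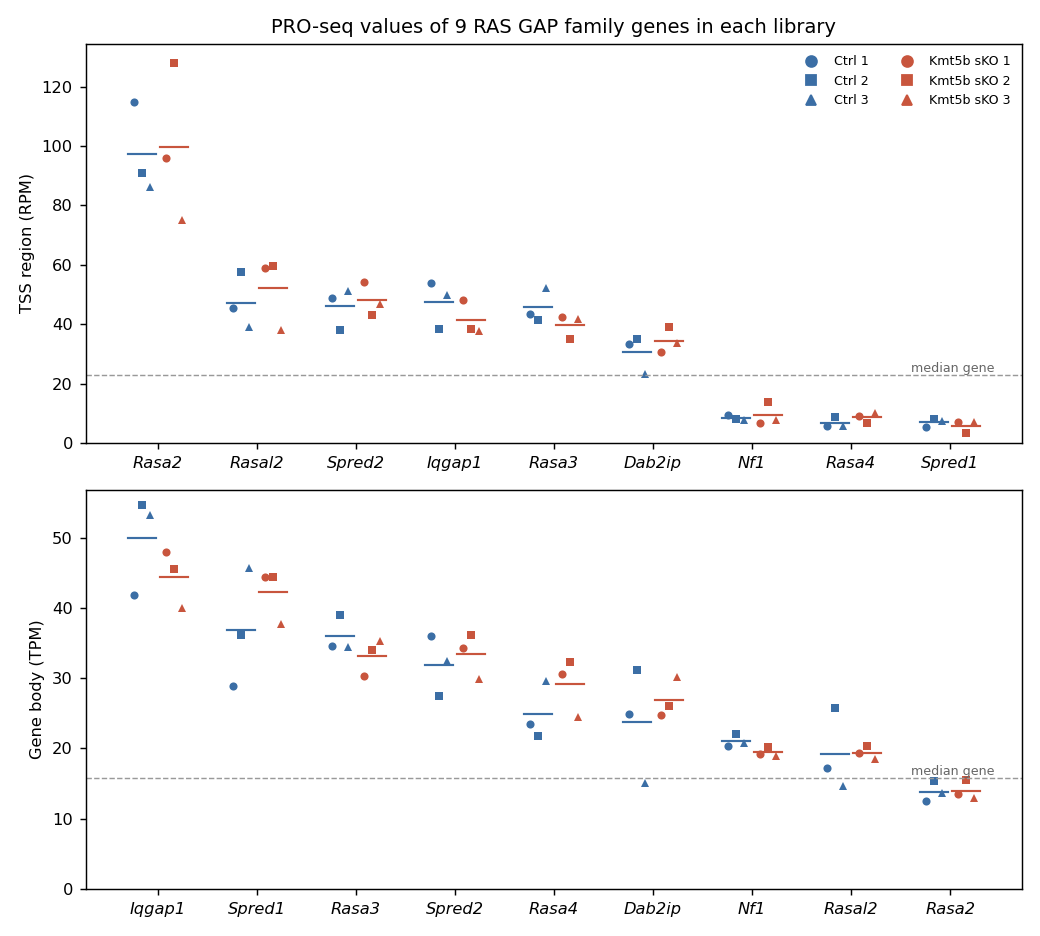
TSS region (RPM, upper panel) and gene body (TPM, lower panel) of the 9 genes in each of the 6 libraries, each panel ordered by mean. Symbols are libraries, bars are the means of 3 libraries, and the dashed line is the median tested gene (23 RPM and 15.9 TPM). *Rasa2* leads at the start with a mean of 98.5 RPM and is last in the body with 13.9 TPM.

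The pausing index is the TSS value in RPM over the gene body value in TPM. It ranks genes within a library by polymerase near the start relative to the body. Each value is scaled to its own total, so an index under 1 does not mean less polymerase per nt at the start. In Ctrl replicate 1 *Nf1* had an index of 0.465, with 39 reads over 400 nt and 7096 over the 238750 nt gene body. The factor between the 2 scales is shared by all genes of a library and can differ between libraries. Means of the index over the 6 libraries are geometric. *Rasa2* ranged from 5.8 to 9.18 over the 6 libraries, with a mean of 7 that lay above 97% of the genes tested. *Rasal2* ranged from 2.06 to 3.05 and overlapped no other member. *Spred2* (1.19 to 1.58), *Dab2ip* (1.12 to 1.53), *Rasa3* (1.03 to 1.52) and *Iqgap1* (0.704 to 1.29) overlapped in this order, with means below the median gene's 1.54. *Nf1* (0.341 to 0.685), *Rasa4* (0.191 to 0.412) and *Spred1* (0.0742 to 0.222) were lowest, with 9.57%, 5.19% and 2.15% of genes below their means. Geometric means thus ran over a 45.1-fold range, while the median member varied by 1.58-fold between its highest and lowest library. The low index of *Spred1* was measured in a region that begins 303 nt past the RefSeq start, and the part of this offset in the value was not tested. *Rasa1* ranged from 0.188 to 0.37 in the same libraries.

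**Figure D3:**
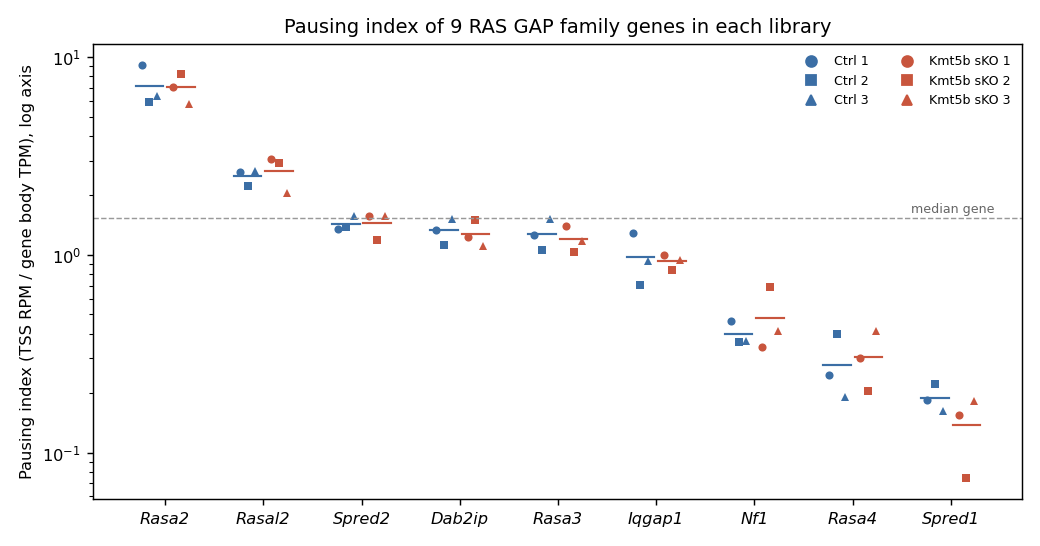
Pausing index of the 9 genes in each of the 6 libraries on a log axis, ordered by geometric mean. Symbols are libraries, bars are the arithmetic means of 3 libraries and the dashed line is the median gene at 1.54. *Rasa2* lies between 5.8 and 9.18 and *Spred1* between 0.0742 and 0.222.

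Loss of *Kmt5b* was then compared with Ctrl for each member in a fit over all tested genes. With limma and an adjusted p under 0.1, 0 of the 9 members were called by TSS region (1.66% of all tested genes were), 0 of 9 by gene body (2.99%) and 0 of 9 by pausing index (0%). No member had an unadjusted p under 0.05 in any of the 3, and edgeR and DESeq2 on the recovered reads called 0 of 9 in both regions. Over all tested genes, the TSS fit called 207 and the gene body fit 372. The pausing index fit called 0 of 11698, of which 452 had an unadjusted p under 0.05. These background counts rest on single libraries: leaving out Ctrl replicate 1 left 1 gene in the TSS fit and 0 in the gene body fit. The gene body count was also 0 with any 1 *Kmt5b* sKO library removed, and 836 with Ctrl replicate 3 removed. The TSS count was 408 with Ctrl replicate 2 removed, and 16, 132 or 46 with the first, second or last *Kmt5b* sKO library removed. The members' count of 0 held in each of these fits.

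Directions were mixed. The fitted log2 fold change was above 0 for 6 of 9 TSS regions, 6 of 9 gene bodies and 3 of 9 pausing indices. Its median over the 9 was 0.066 for TSS regions, 0.053 for gene bodies and -0.0050 for pausing indices, beside 0.081, 0.023 and 0.053 over all tested genes. Groups of 3 libraries lay apart, with no overlap, for 0 of 9 TSS regions (15.6% of tested genes), 1 of 9 gene bodies (21.4%) and 0 of 9 pausing indices (9.02%).

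**Figure D4:**
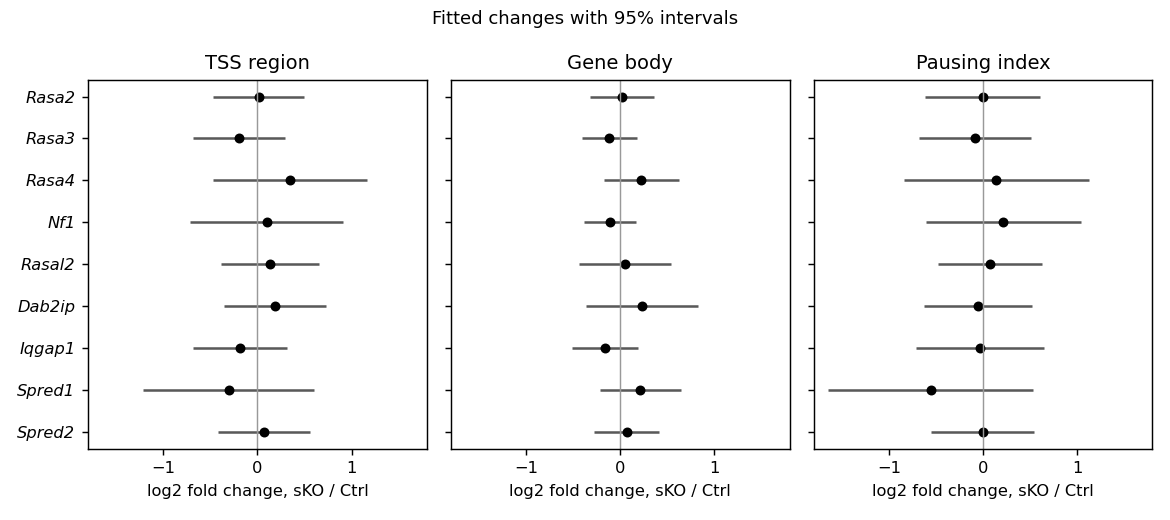
Fitted log2 fold change, *Kmt5b* sKO over Ctrl, of each gene by TSS region, gene body and pausing index (dots, 3 libraries a group) with its 95% interval from limma (lines). All 27 intervals cross 0, and the widest is that of the *Spred1* pausing index, from -1.64 to 0.53.

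Neurofibromin is the most studied RAS GAP of the set, and its gene body was the steadiest, with a highest value 1.16 times its lowest over the 6 libraries. Its TSS region ranged 2.11-fold, wider than that of every other member but *Spred1* (2.44-fold). The *Nf1* gene body held 20.3, 22 and 20.8 TPM under Ctrl, against 19.2, 20.2 and 19 TPM under *Kmt5b* sKO. It was the 1 member whose groups did not overlap, with every *Kmt5b* sKO library below every Ctrl library, yet the gap between the nearest of them was 20.3 to 20.2 TPM. The log2 fold change was -0.11 (SE 0.117, adjusted p = 0.737), with a 95% interval of 0.768-fold to 1.12-fold. Its TSS region held 9.44, 8.04 and 7.58 RPM under Ctrl, against 6.56, 13.9 and 7.82 RPM under *Kmt5b* sKO, where replicate 2 stood above the rest on 21 reads. The genes *Evi2*, *Evi2a* and *Evi2b* lie within *Nf1* on the opposite strand, with mean gene body values of 13.1, 31.2 and 5.04 TPM, and only sense-strand reads were counted for *Nf1*.

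The GAP1 genes, whose products carry C2 and PH domains beside the GAP domain, gave gene body changes on both sides of 0. *Rasa2* held 12.5, 15.3 and 13.6 TPM in gene bodies under Ctrl, against 13.5, 15.5 and 12.9 TPM under *Kmt5b* sKO, a log2 fold change of 0.017 (SE 0.145) with a 95% interval of 0.801-fold to 1.28-fold. *Rasa3*, which encodes a GAP with activity on RAS and RAP1, held 34.5, 38.9 and 34.5 TPM under Ctrl, against 30.3, 34 and 35.4 TPM under *Kmt5b* sKO (log2 fold change -0.11, adjusted p = 0.739). Both pairs of groups overlapped, and the 2 genes had the narrowest gene body intervals beside *Nf1*.

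*Rasa4*, which encodes a calcium-responsive GAP, held 23.5, 21.8 and 29.7 TPM under Ctrl, against 30.6, 32.4 and 24.6 TPM under *Kmt5b* sKO. Its groups overlapped, with Ctrl replicate 3 among the *Kmt5b* sKO libraries and *Kmt5b* sKO replicate 3 among the Ctrl libraries. The log2 fold change of 0.22 (adjusted p = 0.611, the lowest of the 9 gene bodies) had an interval of 0.885-fold to 1.54-fold. In the TSS region *Rasa4* held 5.81, 8.62 and 5.68 RPM under Ctrl, against 9.18, 6.6 and 10.1 RPM under *Kmt5b* sKO, with a log2 fold change of 0.35 (SE 0.393) on 10 to 30 reads per library.

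Of the pair in a further subfamily, *Dab2ip* encodes a GAP that also acts in tumour necrosis factor signalling, and *Rasal2* a GAP of RAS. *Dab2ip* gene bodies held 24.9, 31.2 and 15.1 TPM under Ctrl, against 24.7, 26.1 and 30.1 TPM under *Kmt5b* sKO. *Rasal2* held 17.3, 25.7 and 14.7 TPM under Ctrl, against 19.3, 20.4 and 18.5 TPM under *Kmt5b* sKO. For both genes the Ctrl libraries held the lowest value (replicate 3) and the highest (replicate 2), and the *Kmt5b* sKO libraries lay between them. The SD over Ctrl was 8.09 TPM for *Dab2ip* and 5.78 TPM for *Rasal2*, against 2.81 and 0.948 TPM over *Kmt5b* sKO. Their log2 fold changes were 0.24 (interval 0.779-fold to 1.78-fold) and 0.053 (0.74-fold to 1.45-fold). Without Ctrl replicate 3 these values became -0.051 and -0.12, and without Ctrl replicate 2 they became 0.46 and 0.28. Ctrl replicate 3 was also the library with the lowest sum of differentiating muscle markers, at 1344 TPM, and the part of that in the values of both genes was not tested.

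The scaffold gene *Iqgap1* held 41.8, 54.7 and 53.2 TPM in gene bodies under Ctrl, against 48, 45.6 and 39.9 TPM under *Kmt5b* sKO. The Ctrl mean was 49.9 ± 7.05 TPM (SD, n = 3) and the *Kmt5b* sKO mean 44.5 ± 4.11 TPM (SD, n = 3), with a log2 fold change of -0.16 (SE 0.15, adjusted p = 0.693). Without Ctrl replicate 1, the lowest Ctrl library, it was -0.28 at an adjusted p of 0.542. In the TSS region it held 54, 38.5 and 49.8 RPM under Ctrl, against 48.2, 38.3 and 37.7 RPM under *Kmt5b* sKO, and the groups overlapped there too.

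The 2 SPRED genes differed in the signal of their counted TSS regions more than in that of their gene bodies. *Spred1* gene bodies held 28.9, 36.2 and 45.7 TPM under Ctrl, against 44.4, 44.5 and 37.8 TPM under *Kmt5b* sKO. Its log2 fold change was 0.21 (SE 0.184, interval 0.86-fold to 1.56-fold). Ctrl replicate 3 was the highest library of all 6, and without it the value was 0.38 with an unadjusted p of 0.0432 and an adjusted p of 0.231, the 1 member under 0.05 before adjustment in any fit that left out a library. In the TSS region *Spred1* held 5.33, 8.04 and 7.39 RPM under Ctrl, against 6.88, 3.3 and 6.9 RPM under *Kmt5b* sKO, where 3.3 RPM stands for 5 reads. *Spred2* gene bodies held 36, 27.4 and 32.5 TPM under Ctrl, against 34.3, 36.1 and 29.9 TPM under *Kmt5b* sKO, with a log2 fold change of 0.069 (interval 0.825-fold to 1.33-fold). Its TSS region, at 37.9 to 54.1 RPM, held several times the signal of *Spred1* in every library. The nearest RefSeq start of *Spred2* lay 67 nt inside its TSS region, while that of *Spred1* lay 303 nt upstream of its own. The part of this offset in the contrast was not tested.

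**Figure D5:**
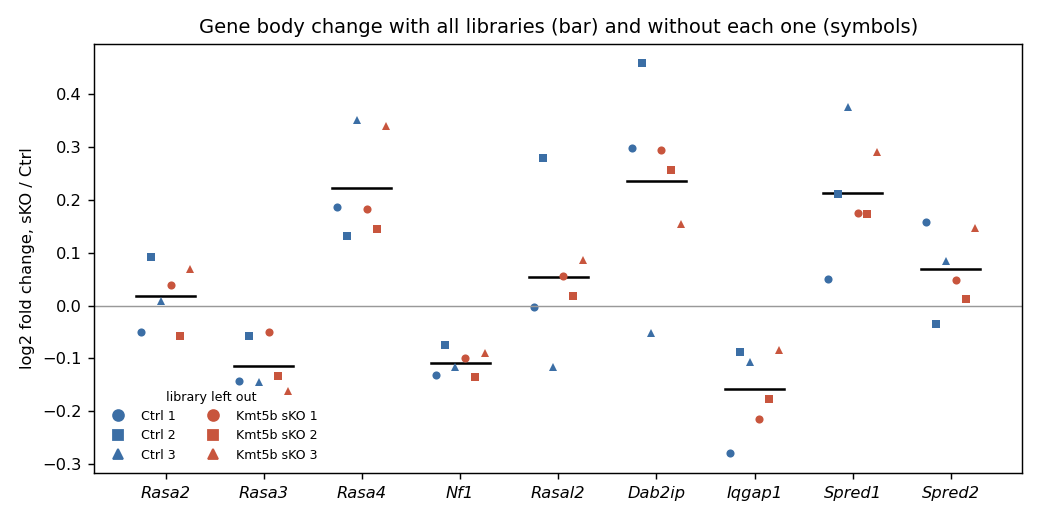
Gene body log2 fold change, *Kmt5b* sKO over Ctrl, of each gene with all 6 libraries (black bar) and with 1 library left out (symbols, named for the library left out). Without Ctrl replicate 3 the value of *Spred1* was 0.38 and that of *Dab2ip* -0.051, against 0.21 and 0.24 with all libraries.

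Spread over the 6 libraries was then set beside that of all tested genes. The highest gene body value of the median member was 1.37 times its lowest over the 6 libraries, against 1.66 for the median tested gene, and the same ratio was 1.69 against 2.03 in the TSS region. The members are longer than most genes and so hold more gene body reads, and the part of depth in this difference was not tested. *Nf1* varied least at 1.16-fold and *Dab2ip* most at 2.06-fold. Ctrl replicate 2 held the highest gene body value of 5 of the 9 members, and *Kmt5b* sKO replicate 2 that of 3. Over 36 pairs of members the correlation of log2 gene body values across the 6 libraries ran from -0.73 (*Rasa3* with *Rasa4*) to 0.81 (*Rasa4* with *Spred1*, and *Rasal2* with *Dab2ip*). These values describe 6 libraries of unequal depth and composition that all genes share.

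*Rasa1* itself, which encodes the p120 RAS GAP, ranged more widely in the gene body than any member. Its gene body held 26.1, 46.2 and 117 TPM under Ctrl, against 79.5, 77.6 and 68.1 TPM under *Kmt5b* sKO, a 4.46-fold range in which the Ctrl libraries were both the lowest and the highest. The log2 fold change was 0.52 (SE 0.473, interval -0.59 to 1.62, adjusted p = 0.678). Across the 6 libraries *Spred1* (r = 0.957) and *Rasa4* (r = 0.723) were the members whose log2 gene body values were most like those of *Rasa1*, and *Dab2ip* (r = -0.53) was the least like it. Among all tested genes, those most like the mean of the 9 members were *Zfp114* (r = 0.996), *Commd8* (r = 0.991) and *Chdh* (r = 0.972), over 6 libraries and as a description only.

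Other genes of the pathway gave the setting in which these values stood. Of 7 further RAS GAP family genes (*Rasa1*, *Iqgap3* and *Spred3* among them) 4 could be tested, and 0 passed in either region. The highest log2 fold change in the gene body was that of *Spred3*, the third SPRED gene, with 25.2, 27.6 and 18.3 TPM in gene bodies under Ctrl, against 36.4, 43.6 and 32.8 TPM under *Kmt5b* sKO (log2 fold change 0.67, unadjusted p = 0.00899, adjusted p = 0.149, limma). The gene body groups of *Spred3* did not overlap, as in 21.4% of tested genes, and its TSS region held at most 4 reads in a library. Its TSS mean was 0.19 RPM in Ctrl and 0.81 RPM in *Kmt5b* sKO. It therefore passed the filter, a mean of 0.5, only through its *Kmt5b* sKO libraries. Its gene body p-value thus comes from a gene kept through the group where it was higher, and is given as a description only. The lowest log2 fold change was that of *Iqgap3*, a scaffold gene related to *Iqgap1*, at -0.72 (adjusted p = 0.313). Of 6 RAS genes 0 passed in either region, and the highest log2 fold change in the gene body was that of *Hras* at 0.70 (adjusted p = 0.311). Of 9 exchange factors 4 could be tested and 0 passed, with *Rasgrp2* at 0.64 on 12 to 40 reads per library (adjusted p = 0.363) and *Sos2* at -0.22 (adjusted p = 0.603).

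Of 16 genes of the ERK pathway and its feedback, 1 rose and 0 fell in the TSS region, and 0 passed in the gene body. The gene that passed was *Spry4*, a Sprouty inhibitor that ERK signalling induces, with 34.9, 50 and 40.7 RPM under Ctrl, against 66.9, 86.5 and 82.3 RPM under *Kmt5b* sKO (log2 fold change 0.91, adjusted p = 0.0733, limma). The difference kept its direction under every alternative, but the adjusted p was 0.295 with no filter on low values, 0.269 without a variance trend and 0.183 with the replicate number as a block. Dropping Ctrl replicate 1 gave 0.35, and dropping any single *Kmt5b* sKO library gave 0.171 to 0.215. Its gene body held 14.3, 22 and 29.1 TPM under Ctrl, against 36.3, 46.5 and 45.2 TPM under *Kmt5b* sKO, and missed the threshold (adjusted p = 0.123, limma). It passed with DESeq2 (adjusted p = 0.0208) and without Ctrl replicate 3 (adjusted p = 0.0458), and missed it with edgeR (adjusted p = 0.109). The largest log2 fold change in the gene body among this list was that of *Dusp6*, an ERK phosphatase, at 1.15 (adjusted p = 0.136), and the lowest was that of *Mapk3*, which encodes ERK1, at -0.20 (adjusted p = 0.748). The median log2 fold change over the 16 genes was 0.16 in the gene body, beside 0.023 over all tested genes and 0.053 over the 9 members. Whether the ERK genes and the members differed in their response was not tested.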

How the data were processed

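PRO-seq was analysed in proliferating MuSCs, with 3 libraries of each genotype. The authors checked reads with FastQC 0.11.8, used Trimmomatic 0.39 for trimming and STAR 2.6.1d for alignment to GRCm38, where a read with several positions was given 1 at random, and took out duplicates with Picard 2.18.16, per the submitters' processing notes and the methods. They counted sense-strand reads in the TSS region and gene body of coding isoforms and listed 1 isoform per gene. The header calls the deposited TSS values TPM. As all TSS regions have 1 length, TPM cannot be told from RPM, reads scaled to a fixed total without a length term. The TSS values are called RPM here, and the deposited gene body values are TPM. Both are scaled to fixed totals, so a shift shared by all genes is not seen. The tests had been planned for TPM and were kept, as all TSS regions have 1 length.

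A gene was kept if its mean reached 0.5 in each region and it lay on neither X nor Y. Values were tested as log2(value + 0.5), which understates changes of low genes, with limma 3.58.1 (R 4.3.3, eBayes with a trend, genotype only) with calls at p under 0.1 after Benjamini-Hochberg adjustment. For the pausing index, a log2 ratio with no pseudocount was fitted in 11698 genes that were above 0 in every library. Reads were recovered from the steps between values: 100% of low TSS values and of low values in gene bodies under 2000 nt were whole within 0.1 read. The count tests, edgeR 4.0.16 and DESeq2 1.42.0, ran on these reads. Same-numbered Ctrl and *Kmt5b* sKO libraries deviated from their group means with correlations of -0.03, -0.13 and -0.16 in the TSS region and -0.15, -0.17 and -0.33 in the gene body. These values gave no sign of pairing, but they cannot show that such libraries were prepared apart. The labels name no pairs, so the main fit did not use the replicate numbers. Alternatives were other filters, pseudocounts, scalings, thresholds and tools, a replicate block and each library left out.

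The members, lists and tests were chosen with earlier results of these data known. All members are named. Of each other list the genes past the threshold are named, otherwise the 1 with the largest rise and the 1 with the largest fall in the gene body. For the ERK list both of the latter and *Spry4* are given. *Spry4*'s gene body value, *Kmt5b* and the nested *Evi2* genes were chosen after their values were seen. Promoter shares and exons come from RefSeq and GENCODE annotations of GRCm38. Scripts were tested on simulated data. Tables and plots used pandas 2.3.3, numpy 2.4.6 and matplotlib 3.10.9 in Python 3.11.15.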

Additional observations from a re-analysis of the deposited data

How the results depend on the processing

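No member passed the threshold under any alternative: of 414 member values 378 kept their direction and 36 changed sign, all of them at adjusted p values above 0.1. The number of genes called in all was less stable. In the TSS region it went from 207 to 0 with no filter on low values, to 0 with eBayes without a trend, to 0 with the replicate block and to 64 at an adjusted p under 0.05, and it ran from 1 to 408 when single libraries were left out. In the gene body it went from 372 to 0 with the replicate block, to 1 at an adjusted p under 0.05, to 748 with edgeR and to 1296 with DESeq2, and it ran from 0 to 836 when single libraries were left out. In the pausing index 1 and 2 genes were called with pseudocounts of 0.5 and 1. As the labels name no pairs, the replicate block is given only here and for *Spry4*. The cause of these differences was not tested. The median log2 fold change of the members was -0.038 in the TSS region with DESeq2, and when single libraries were left out it ran from -0.031 to 0.19 there, from -0.051 to 0.092 in the gene body and from -0.13 to 0.090 in the pausing index. *Rasa2* changed sign in the TSS region with median centring (-0.050), edgeR (-0.049) and DESeq2 (-0.059) and in the gene body with edgeR (-0.0047) and DESeq2 (-0.011). *Spred2* did so in the TSS region with edgeR (-0.027) and DESeq2 (-0.038). The other changes of sign came from leaving out single libraries. In the TSS region the values then ran from -0.18 to 0.20 for *Rasa2*, -0.20 to 0.31 for *Nf1*, -0.0021 to 0.29 for *Dab2ip*, -0.47 to 0.013 for *Spred1* and -0.066 to 0.15 for *Spred2*. In the gene body they ran from -0.057 to 0.092 for *Rasa2*, -0.12 to 0.28 for *Rasal2*, -0.051 to 0.46 for *Dab2ip* and -0.035 to 0.16 for *Spred2*. In the pausing index they ran from -0.13 to 0.19 for *Rasa2*, -0.21 to 0.044 for *Rasa3*, -0.10 to 0.43 for *Rasa4*, -0.077 to 0.43 for *Nf1*, -0.028 to 0.25 for *Rasal2*, -0.17 to 0.050 for *Dab2ip*, -0.25 to 0.19 for *Iqgap1* and -0.072 to 0.13 for *Spred2*. Depth limits the TSS values of *Nf1*, *Rasa4* and *Spred1*, which rest on 5 to 40 reads per library.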
